A study of Mus musculus with 18 samples.

Results

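The type 1 vomeronasal receptors of the mouse are a family of pheromone receptor genes whose symbols begin with Vmn1r. The family was taken as all protein-coding genes with such a symbol on chromosomes 1 to 19, which gave 231 genes of 20661 protein-coding genes there. It includes Vmn1r-ps103, which the annotation lists as protein-coding. Each gene was given a window of its span and 2.0 kb either side, and every region of the deposited lists that touched the window was assigned to it. No region touched the windows of 2 members, so the members do not share values. The genes lie in runs of neighbours, with 126 members on chromosome 7, 51 on chromosome 6, 36 on chromosome 13 and 14 on chromosome 17. Chromosome 4 holds 2 members, and chromosomes 1 and 18 hold 1 each.

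Chromatin immunoprecipitation and sequencing (ChIP-seq) had been done on cardiomyocyte-enriched cell populations of C57BL/6J mice. The KO mice carried G9a flox/flox and alphaMHC-MerCreMer +/-, and the Cre mice carried alphaMHC-MerCreMer +/- with no floxed allele named, so both genotypes held the recombinase. MerCreMer is a Cre recombinase that works only when tamoxifen is given, and the alpha myosin heavy chain promoter restricts it to heart muscle cells, so other cells in the preparation keep G9a. The immunoprecipitated targets were G9a, the histone marks H3K9me2 and H3K27me3, and Mef2c, 4 in all. Every target had 2 KO and 2 Cre libraries, and with 1 input library of each genotype this makes 18 libraries. The ages, the tamoxifen schedule and whether the libraries came from separate animals are not stated in the labels, so p-values measure only the spread between these libraries. The values are the authors' deposited signal over regions that their comparison listed as different, and the depth behind them is unknown. Sequence outside those regions was not analysed here.

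Type 1 vomeronasal receptors are G-protein-coupled receptors of the vomeronasal organ, where a sensory neuron expresses a single receptor gene from a single allele and keeps the rest silent. Their signal runs through the G protein subunit Gnai2 and the cation channel Trpc2. Nearly the whole coding sequence sits in a single exon, and the genes have multiplied by local duplication, so that neighbours can be almost identical. They are not known as genes of the heart. G9a, the product of Ehmt2, is a histone methyltransferase whose main mark is H3K9me2, the dimethylated form of lysine 9 on histone H3. The mark of Polycomb repressive complex 2 is H3K27me3, and both marks are associated with silent genes. Mef2c is a muscle transcription factor that binds AT-rich DNA.

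The RefSeq promoter windows of the family were poor in the CpG dinucleotide and rich in A and T. Promoter sequences of 300 bases (250 before the start and 50 after it) came from RefSeq with build GRCm38.p6, and 206 of the 231 members matched. They held a median of 1 CpG, against 7 over 32851 promoters of all genes, and a median of 36% G and C against 52.7%. No CpG at all was found in 44 of them, which is 21.4% of the family's promoters and 5.43% of all promoters. The 4 promoters below lay under regions described further on and are shown with each CpG in capitals, to let the AT-rich make-up be seen. Vmn1r158 lies at chr7:22790733-22791032 (minus strand), Vmn1r173 at chr7:23702092-23702391 (plus strand), Vmn1r212 at chr13:22884112-22884411 (minus strand) and Vmn1r234 at chr17:21228576-21228875 (plus strand).
Vmn1r158: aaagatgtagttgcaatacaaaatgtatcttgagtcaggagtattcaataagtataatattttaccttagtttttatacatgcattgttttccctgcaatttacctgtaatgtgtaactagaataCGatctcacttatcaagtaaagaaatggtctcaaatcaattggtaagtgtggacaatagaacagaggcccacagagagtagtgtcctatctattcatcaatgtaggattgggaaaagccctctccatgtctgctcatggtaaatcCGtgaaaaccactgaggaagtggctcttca
Vmn1r173: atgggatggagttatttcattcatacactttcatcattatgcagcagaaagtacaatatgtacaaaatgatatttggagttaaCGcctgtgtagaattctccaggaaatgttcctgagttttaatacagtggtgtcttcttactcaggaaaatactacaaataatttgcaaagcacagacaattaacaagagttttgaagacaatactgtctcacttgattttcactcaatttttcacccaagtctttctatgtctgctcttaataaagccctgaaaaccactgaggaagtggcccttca
Vmn1r212: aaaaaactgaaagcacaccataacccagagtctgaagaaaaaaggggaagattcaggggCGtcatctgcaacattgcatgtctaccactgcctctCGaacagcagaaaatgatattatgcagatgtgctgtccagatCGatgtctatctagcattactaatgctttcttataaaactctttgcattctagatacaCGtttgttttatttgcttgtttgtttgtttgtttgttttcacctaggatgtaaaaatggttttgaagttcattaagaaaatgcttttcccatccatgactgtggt
Vmn1r234: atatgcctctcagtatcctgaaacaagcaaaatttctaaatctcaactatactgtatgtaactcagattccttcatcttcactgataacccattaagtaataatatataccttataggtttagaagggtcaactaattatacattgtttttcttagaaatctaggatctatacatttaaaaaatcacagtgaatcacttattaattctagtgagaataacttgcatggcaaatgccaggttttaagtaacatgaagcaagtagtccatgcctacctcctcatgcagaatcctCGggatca
Vmn1r158 held 2 CpG, Vmn1r212 held 4, and Vmn1r173 and Vmn1r234 held 1 each. In all 4 the 50 bases after the start begin with ATG, the start codon, so the annotated start may be that of the coding sequence. The comparison with all promoters may therefore set unlike windows side by side. Toward their 3′ ends Vmn1r158 and Vmn1r173 share the run TGAAAACCACTGAGGAAGTGGC, their longest common stretch. In both genes this run lies in the 50 bases after the start, beyond the ATG. It may therefore be coding sequence that copies share, not a promoter element. On either strand this run stood in 66 of the 206 family windows (32.0%) and in 69 of all 32851 (0.21%). Of the 66, 65 lie among the neighbours from Vmn1r91 to Vmn1r183 on chromosome 7, where 78.3% of the promoters hold it, and the last is that of Vmn1r90.

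Across the family, the listed regions were mostly lower in KO for G9a, H3K27me3 and Mef2c and mostly higher for H3K9me2, as they were over the genome. For G9a, 198 of the family's 284 regions were lower in KO, or 69.7% (95% Wilson interval 64.1% to 74.8%), against 61.5% of all listed G9a regions. The other 86 were higher, where 38.5% of all were. For H3K27me3, 182 of 262 were lower (69.5%, interval 63.6% to 74.7%), against 63.3% of all, and 80 were higher, against 36.7%. For Mef2c 202 of 293 were lower (68.9%, interval 63.4% to 74%), against 61.7%, and 91 were higher, against 38.3%. For H3K9me2, 284 of 437 regions were higher in KO (65.0%), against 60.3% of all, and 153 were lower, against 39.7%. These intervals cover counting error only, and neighbouring regions are not independent, so the shares are descriptions without a test. In the runs with at least 24 members, listed regions outside the receptor windows were also counted. By run, 60.5% to 68.7% of these were lower for G9a, 64.1% to 77.8% for H3K27me3 and 65.1% to 72.0% for Mef2c. For H3K9me2, 31.4% to 37.2% were lower. The family's share lay within these ranges except for G9a, so its distance from all listed regions is not shown to be particular to the receptors. The median log2 ratio of KO to Cre over the family's regions was -0.88 for G9a and 0.73 for H3K9me2. It was -0.79 for H3K27me3 and -0.87 for Mef2c. The medians over all listed regions were -0.73, 0.72, -0.64 and -0.75 in the same order of targets. The median of the family minus that of all listed regions was thus -0.15 for both G9a and H3K27me3, -0.11 for Mef2c and 0.02 for H3K9me2 on the log2 scale. Scaling the libraries to the same median over all listed regions moved the genome-wide medians by 0.31, -0.29, 0.28 and 0.33 for G9a, H3K9me2, H3K27me3 and Mef2c. After that scaling the same differences were -0.12 for G9a, -0.15 for H3K27me3, -0.11 for Mef2c and 0.01 for H3K9me2.

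As a share of all listed signal, the family took 0.0357% and 0.0421% of the G9a signal in the KO libraries and 0.0417% and 0.0486% in the Cre libraries, so the genotypes overlapped. For H3K9me2 the shares were 0.0778% and 0.0709% in KO and 0.0683% and 0.0694% in Cre, with both KO values above both Cre values. For H3K27me3 they were 0.0309% and 0.0365% in KO and 0.0362% and 0.039% in Cre, which overlapped. Mef2c shares were 0.0558% and 0.0556% in KO, below the 0.0585% and 0.0634% in Cre. The log2 ratios of the mean shares were -0.21, 0.11, -0.16 and -0.13 in that order of targets, with exact two-sided permutation p of 0.667, 0.333, 0.667 and 0.333. With 2 libraries against 2 the smallest p that this test can give is 0.333, so no difference of this kind could pass a threshold of 0.05.

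Counted by gene, lower regions alone were the most frequent pattern among members that had a G9a, H3K27me3 or Mef2c region. For G9a 81 members had lower regions only (35.1%, against 14.3% of all protein-coding genes), 26 had higher regions only (against 7.88%), 35 had both (against 69.6%) and 89 had no listed region, so that 61.5% had a region, against 91.8% of all genes. For H3K9me2 20 members had lower regions only (against 6.92%), 61 had higher regions only (26.4%, against 14.9%), 85 had both (against 70.9%) and 65 had none, so that 71.9% had a region, against 92.8%. For H3K27me3 the counts were 62 (against 12.8%), 24 (against 9.13%), 39 (against 47.2%) and 106 in the same order, and 54.1% had a region, against 69.1%. For Mef2c they were 78 (against 14.7%), 19 (against 7.4%), 54 (against 70.1%) and 80, and 65.4% had a region, against 92.2%. The receptor genes are short, with a median span of 924 bp against 17491 bp over all genes, so other short genes were set beside them. Other protein-coding genes with a span under 2.0 kb, 2081 in number, were taken for this. Lower G9a regions only were found at 35.1% of the family and 34.5% of those short genes, and higher G9a regions only at 11.3% and 14.9%. Higher H3K9me2 regions only were found at 26.4% of the family and 32.0% of short genes, and higher Mef2c regions only at 8.23% and 17.6%. For lower regions only, the shares were 26.8% of the family and 24.2% of short genes for H3K27me3, and 33.8% and 32.8% for Mef2c. Lower H3K9me2 regions only were found at 8.66% of the family and 16.3% of short genes. Any G9a region was found at 61.5% of the family and 74.5% of short genes. These differences were not tested.

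**Figure D1:**
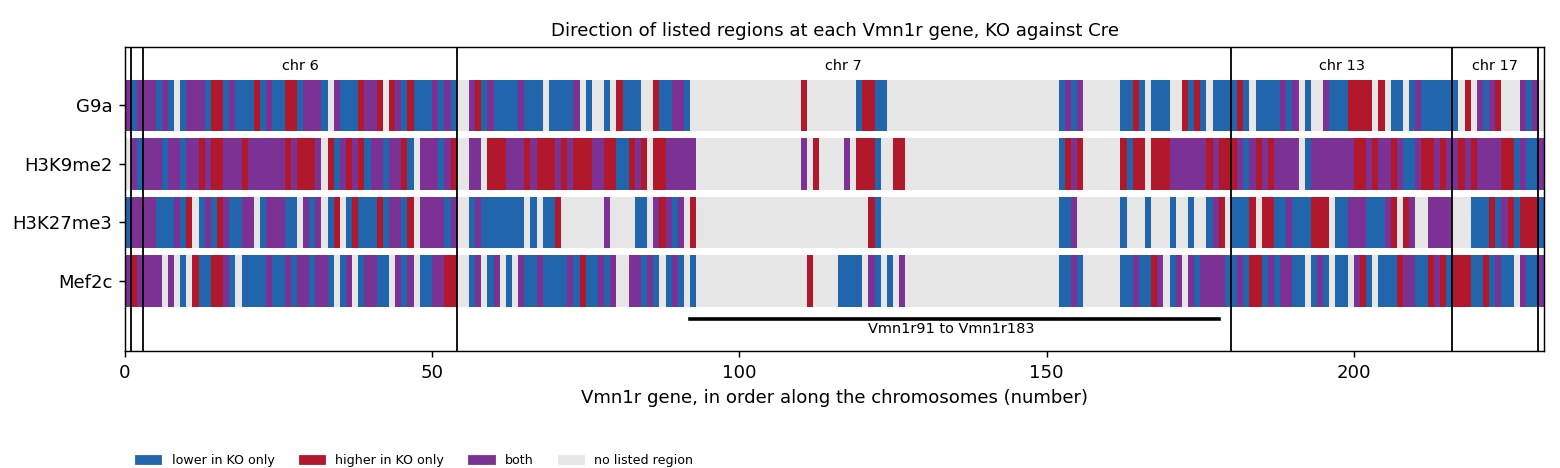
Each column is a Vmn1r gene in order along the chromosomes and each row a target. Blue marks genes with regions lower in KO only, red higher in KO only, purple both and grey no listed region. The wide grey stretch on chromosome 7 lies between Vmn1r91 and Vmn1r183, where 51 of 86 genes had no region for any target.

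Members with the strongest G9a regions were Vmn1r45, Vmn1r57, Vmn1r65 and Vmn1r72 among the lower ones and Vmn1r45, Vmn1r218, Vmn1r85 and Vmn1r16 among the higher ones. They were chosen as those with the highest -log10 p in the authors' deposited list. Vmn1r57 (chr7:5221151-5221750) had G9a values of 3 and 0 in KO and 118 and 166 in Cre in that deposited list, a log2 ratio of -5.84. Vmn1r65 (chr7:6008351-6009750) had 90 and 65 in KO and 334 and 340 in Cre in the same deposited list, a log2 ratio of -2.11. The KO libraries lay far below the Cre libraries at both genes, and each pair of libraries was close together at Vmn1r65. Vmn1r45 was listed in both directions within its own window. Its region at chr6:89933151-89933900 had 7 and 4 in KO and 203 and 137 in Cre in the authors' deposited list, giving a log2 ratio of -4.72. A second region near its start, chr6:89941201-89942050, had 280 and 212 in KO and 7 and 74 in Cre in that deposited list, a log2 ratio of 2.57. The G9a signal of this gene was therefore low in KO at the first place and high in KO at the second, with no overlap of the genotypes at either. Vmn1r218 on chromosome 13 (chr13:23134301-23135050) had 148 and 244 in KO and 40 and 40 in Cre in the deposited list, a log2 ratio of 2.26. Over the family, 184 G9a regions (64.8%) had KO and Cre values that did not overlap, against 61.5% of all listed G9a regions.

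H3K9me2, the mark G9a writes, was most clearly higher in KO at Vmn1r173, Vmn1r235, Vmn1r209 and Vmn1r159. The Vmn1r173 region (chr7:23701451-23703500), which covers the promoter printed above, had 533 and 553 in KO and 172 and 125 in Cre in the authors' deposited list, giving a log2 ratio of 1.86. Vmn1r209 on chromosome 13 (chr13:22804301-22805450) had 268 and 415 in KO and 50 and 90 in Cre in that deposited list, a log2 ratio of 2.27. Vmn1r159 (chr7:22844251-22845550) had 276 and 283 in KO and 17 and 71 in Cre in the deposited list, a log2 ratio of 2.64. At all 3 genes both KO libraries were above both Cre libraries, and the KO pair was the tighter at Vmn1r173 and Vmn1r159. The strongest lower regions were at Vmn1r76, Vmn1r32, Vmn1r88 and Vmn1r177. Vmn1r76 (chr7:11928801-11929450) had 7 and 29 in KO and 200 and 192 in Cre in the deposited list, a log2 ratio of -3.37. Of the family's H3K9me2 regions 283 (64.8%) did not overlap between the genotypes, against 65.7% of all. Vmn1r173 and Vmn1r159 have near-identical copies (99% identical promoters at Vmn1r174 and 99.7% at Vmn1r122), as has Vmn1r177 (98% at Vmn1r168), so the gene that their reads came from is uncertain.

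H3K27me3 had the regions with the highest -log10 p of the family, a lower and a higher one at neighbouring genes of chromosome 17 that are described below. On chromosome 6 the strongest was at Vmn1r41 (chr6:89737451-89741150), where the authors' deposited list gave 411 and 362 in KO and 962 and 940 in Cre, a log2 ratio of -1.30. The Vmn1r212 region on chromosome 13 (chr13:22883451-22885100), over the promoter printed above, had 103 and 34 in KO and 456 and 252 in Cre in that deposited list, a log2 ratio of -2.35. At Vmn1r41 the libraries of each genotype agreed closely, while at Vmn1r212 they differed more within a genotype and still did not overlap. The region at Vmn1r158 (chr7:22789751-22791150) had 39 and 65 in KO and 205 and 496 in Cre in the deposited list, a log2 ratio of -2.73. Among the higher regions, Vmn1r77 (chr7:12040801-12041950) had 137 and 361 in KO and 49 and 94 in Cre in the deposited list, a log2 ratio of 1.79. Vmn1r159 had 68 and 115 in KO and 2 and 0 in Cre in that list, and it was also among the highest H3K9me2 regions at an overlapping place. Of the family's H3K27me3 regions 184 (70.2%) did not overlap between the genotypes, against 67.1% of all. The promoter of Vmn1r158 is 99% identical to that of Vmn1r101, so its values too are uncertain as to the gene.

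Mef2c signal was lower in KO most clearly at Vmn1r200, Vmn1r158, Vmn1r59 and Vmn1r4. Vmn1r200 (chr13:22393701-22394700), the strongest region of chromosome 13, had 28 and 37 in KO and 269 and 298 in Cre in the authors' deposited list, giving a log2 ratio of -3.09. Vmn1r158 (chr7:22789301-22791100) had 121 and 228 in KO and 309 and 686 in Cre in that deposited list, a log2 ratio of -1.51. The Mef2c region at Vmn1r158 covers nearly the whole of the H3K27me3 region that was also lower in KO there, while the 2 H3K9me2 regions of the gene were higher in KO, with log2 ratios of 0.69 and 0.76. The highest of the higher regions was at Vmn1r27 on chromosome 6 (chr6:58215151-58215850), with 137 and 170 in KO and 20 and 37 in Cre in the deposited list and a log2 ratio of 2.39. The others were at Vmn1r63, Vmn1r198 and Vmn1r12. Of the family's Mef2c regions 195 (66.6%) did not overlap between the genotypes, against 65.9% of all.

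**Figure D2:**
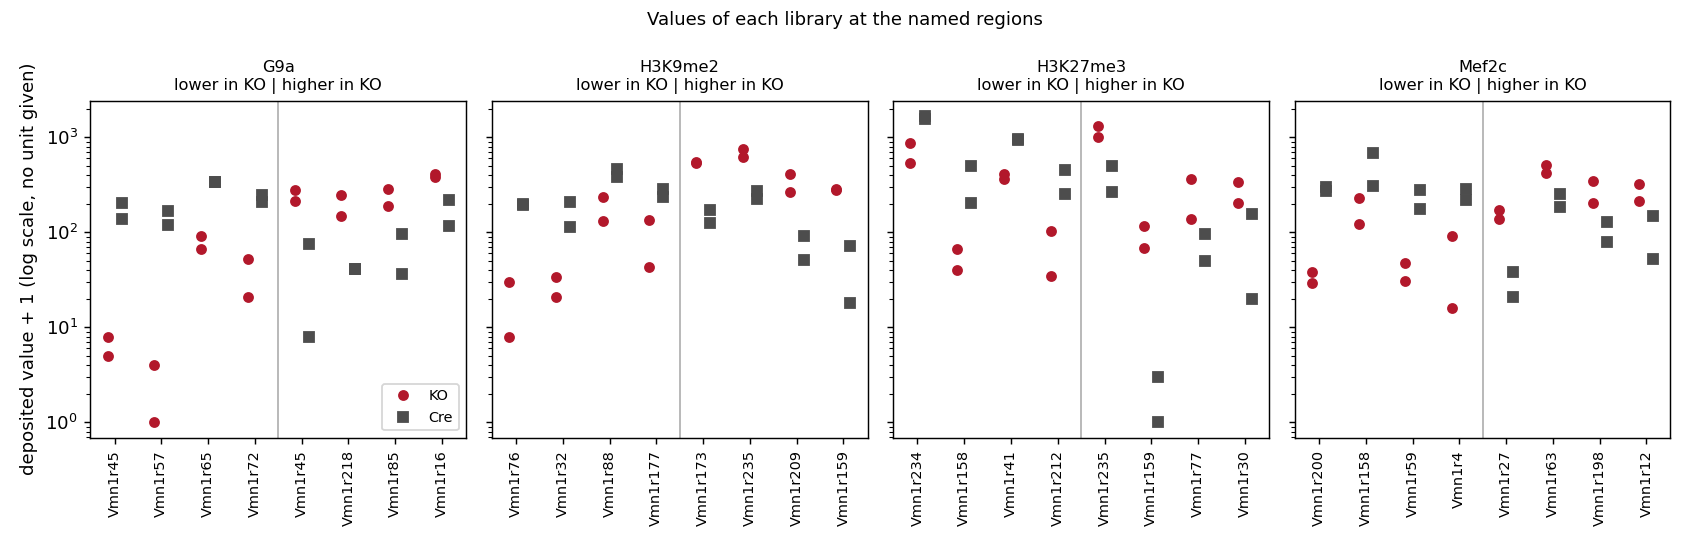
The vertical axis gives the deposited value plus 1 of each library on a log scale, with KO as red circles left of Cre as grey squares. In each panel the first 4 regions are the strongest listed as lower in KO and the last 4 the strongest listed as higher in KO. KO and Cre values do not overlap at any of the 32 regions. The regions were chosen by the highest -log10 p of that same difference, so the separation largely follows from the choice.

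None of the family's regions passed limma at an adjusted p under 0.05 for any target. In limma fits over all listed regions, the smallest adjusted p in the family was 0.322 for H3K27me3, 0.399 for Mef2c, 0.400 for H3K9me2 and 0.454 for G9a. Of all listed H3K27me3 regions 0.00119% passed, and of the other targets 0% passed. Before adjustment, limma p was under 0.05 at 24 G9a regions (8.45%, against 6.5% of all), of which 19 were lower in KO. It was under 0.05 at 57 H3K9me2 regions (13%, against 11.1%, with 49 higher in KO), at 47 H3K27me3 regions (17.9%, against 15.3%, with 42 lower) and at 41 Mef2c regions (14%, against 11.3%, with 36 lower). With the libraries scaled to a common median these splits changed to 12 lower and 10 higher for G9a, 25 lower and 26 higher for H3K9me2, 25 lower and 14 higher for H3K27me3, and 10 lower and 16 higher for Mef2c. The splits also turned on single values. Without the second Cre value, 1 was lower and 8 were higher for G9a, and 4 were lower and 11 higher for Mef2c, so most ran the other way. Without the first KO value 85 G9a regions were lower and 13 higher, and without the second KO value 66 Mef2c regions were lower and 7 higher. For H3K9me2, leaving out the first KO value gave 9 lower and 11 higher, and leaving out the second gave 12 and 13. For H3K27me3, leaving out the second Cre value gave 9 lower and 7 higher. Since regions entered the lists by differing between the genotypes, such p-values run too low. Without the first KO value, some G9a regions of the family passed the adjusted threshold, all lower in KO, on the assumption that the lone KO value varies like the rest. For the fits with a value left out, the shares over all listed regions were not taken. The counts from those fits are therefore not results about the family.

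The share of lower regions varied between the chromosomes that hold the family, and these differences were not tested. For G9a, lower regions made up 76.4% of 106 regions on chromosome 7, 76.6% of 47 on chromosome 13, 64.8% of 108 on chromosome 6 and 43.8% of 16 on chromosome 17. For Mef2c the shares were 75.2% of 117 regions on chromosome 7, 70.6% of 51 on chromosome 13, 68.0% of 97 on chromosome 6 and 42.9% of 21 on chromosome 17. H3K27me3 regions were lower in 77.2% of 57 on chromosome 7, 73.9% of 119 on chromosome 6, 61.4% of 57 on chromosome 13 and 45.5% of 22 on chromosome 17. Of these 4 chromosomes, chromosome 17 alone had fewer than 50% of its G9a, H3K27me3 and Mef2c family regions lower in KO, on few regions and with wide intervals. For H3K9me2 the shares lay closer, at 29.1% on chromosome 7, 36.8% on chromosome 17, 37.0% on chromosome 13 and 39.0% on chromosome 6. Within chromosome 6 they lay further apart, at 32.5% of 83 regions from Vmn1r4 to Vmn1r31, 50% of 16 from Vmn1r32 to Vmn1r39 and 48.6% of 37 from Vmn1r40 to Vmn1r54. Listed regions in the stretch of chromosome 17 from Vmn1r224 to Vmn1r237 that lay outside the receptor windows were lower in 65.4% for G9a, 64.7% for H3K27me3 and 61.5% for Mef2c. Those shares are near the shares of the rest of chromosome 17, which were 63.6%, 63.3% and 63.2%. Ehmt2, the targeted gene, is also on chromosome 17, 13.6 to 14.5 Mb from these members.

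**Figure D3:**
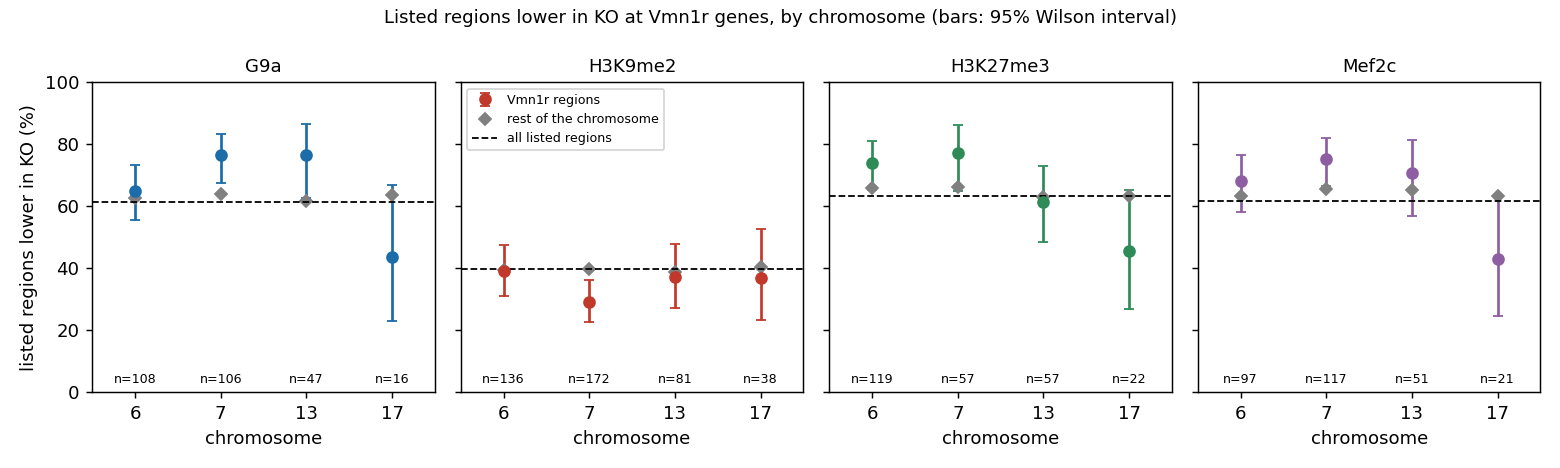
Points give the percent of listed regions in Vmn1r windows that were lower in KO, by chromosome, with 95% Wilson intervals and the number of regions. Grey diamonds give the rest of the same chromosome and the dashed line all listed regions. The G9a, H3K27me3 and Mef2c points of chromosome 17 (43.8%, 45.5% and 42.9%) lie below their dashed lines, while those of chromosome 7 lie above.

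Within chromosome 17 the direction of H3K27me3 switched between neighbours. Vmn1r234 (gene ID 171232, chr17:21228826-21229816) lay under a region of 4350 bp, chr17:21227501-21231850, that spanned the whole gene and the promoter printed above. In the authors' deposited list its H3K27me3 values were 866 and 538 in KO and 1570 and 1683 in Cre, which gives a log2 ratio of -1.21, and the authors' -log10 p was 79.6. The next gene, Vmn1r235 (gene ID 171233, chr17:21260427-21262863), had 4 H3K27me3 regions, all higher in KO. The strongest, chr17:21255501-21258900, had 998 and 1323 in KO and 264 and 501 in Cre in the deposited list, which gives a log2 ratio of 1.60, and its -log10 p of 86.9 was the highest of the family. Both KO values were below both Cre values at Vmn1r234 and above both at Vmn1r235. The limma standard error of the log2 difference was 0.28 at Vmn1r234 and 0.36 at Vmn1r235, and the adjusted limma p was 0.322 at both. H3K9me2 went the same way as H3K27me3 at the main regions of this pair. At Vmn1r235 the H3K9me2 region over the promoter (chr17:21258401-21260750) had 748 and 620 in KO and 225 and 270 in Cre in the deposited list, a log2 ratio of 1.46. At Vmn1r234 the 2 H3K9me2 regions were lower, with log2 ratios of -1.33 and -1.90, on low values between 0 and 117. Vmn1r235 also had 3 higher and 1 lower G9a region and 4 higher and 1 lower Mef2c region, while Vmn1r234 had none for G9a or Mef2c. Beyond the pair, Vmn1r233 had 3 H3K27me3 regions, Vmn1r236 had 1 and Vmn1r237 had 2, all higher in KO, with log2 ratios between 0.96 and 1.43. These 5 genes form the old V1rf family, in which 10 of 12 H3K27me3 regions were higher in KO. Of the 10 H3K9me2 regions of V1rf, 6 were lower in KO, and 3 of the 5 genes had lower H3K9me2 regions only. The shared direction at the main regions of the pair therefore did not hold across V1rf.

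**Figure D4:**
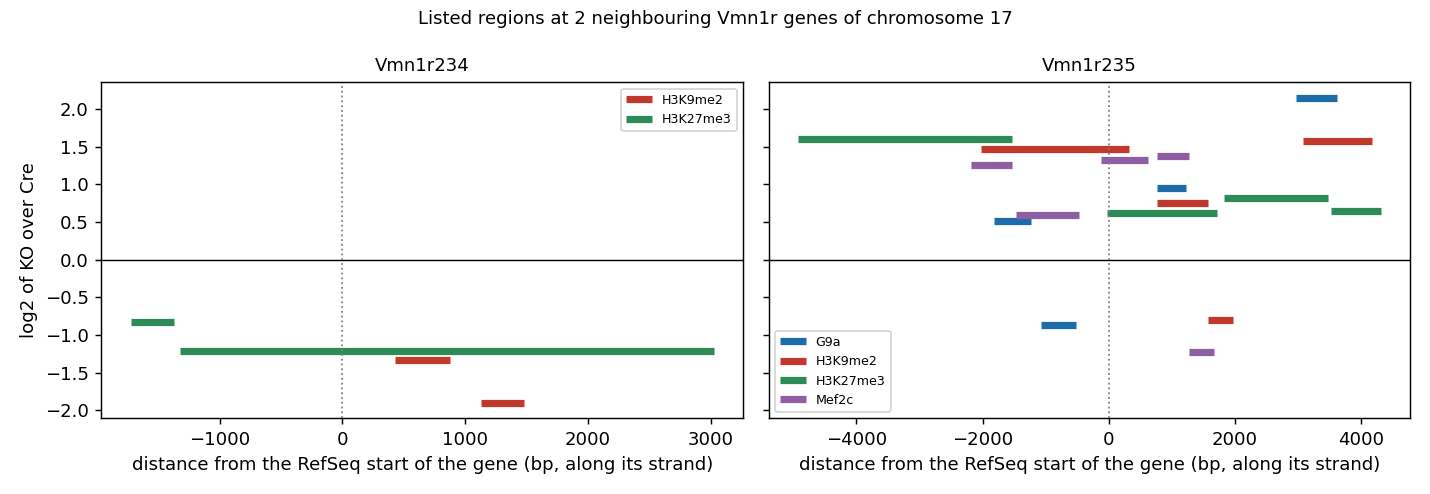
Bars are listed regions, placed by their distance in bp from the RefSeq start of each gene, at the height of their log2 ratio of KO to Cre and coloured by target. All 4 bars of Vmn1r234 lie below 0, and all 4 H3K27me3 bars of Vmn1r235 lie above 0.

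The older subfamily names, which 128 members carry as synonyms, gave a similar picture for H3K27me3. In V1rh, 21 genes on chromosome 13, 27 of 35 H3K27me3 regions were lower in KO, while in V1ri, 9 genes of the same chromosome, 3 of 11 were lower. In V1rc, 31 genes of chromosome 6, 53 of 70 were lower, and in V1rd, 20 genes of chromosome 7, 17 of 20 were lower. V1ri and V1rf had fewer than 50% of their H3K27me3 regions lower in KO, and in the other subfamilies the share was between 60% and 100%. For G9a, V1ri had 6 of 7 regions lower, so its H3K27me3 and G9a regions did not share a direction. No test was made between subfamilies, since their regions are neighbours.

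The largest run of the family, 86 genes from Vmn1r91 to Vmn1r183 on chromosome 7, held fewer listed regions for its length than the other long runs, and least of all H3K27me3. Of its members 22 had a G9a region, 29 an H3K9me2 region, 12 an H3K27me3 region and 28 a Mef2c region. No region of any target touched 53 of the 231 members, which is 22.9% of the family and 2.41% of all protein-coding genes. Of these, 51 lie in that run. The other 2 are Vmn1r186 and Vmn1r187, whose annotated positions lie before 3000951, the first listed position of chromosome 7 for any target. Nothing at all was listed in that part of the chromosome, so whether these 2 genes could be measured is unknown. Listed H3K27me3 regions covered 2.56% of the windows in the run, against 24.6% from Vmn1r4 to Vmn1r31 on chromosome 6 and 23.8% on chromosome 13. For H3K9me2 the coverage was 12.2% in the run, 27.2% from Vmn1r4 to Vmn1r31 and 31.6% on chromosome 13. Over the whole stretch of 3.96 Mb, sequence between the genes included, the coverage was 2.68% for H3K27me3, 12.2% for H3K9me2, 7.52% for G9a and 7.29% for Mef2c. A region of each of the 4 targets was present at 91 members, which is 39.4% of the family, against 63.4% of all genes.

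Most members without a region had near-identical copies. Of the 206 members with a promoter sequence, 83 were at least 95% identical to another member over those 300 bases, and 49 of these (59.0%) had no region of any target. Among the 123 below 95% identity, 1 had no region (0.813%), Vmn1r148, which lies in the same run. H3K9me2 regions were found at 33.7% of the 83 and 94.3% of the 123, G9a at 30.1% and 78.9%, Mef2c at 32.5% and 83.7%, and H3K27me3 at 16.9% and 75.6%. An identical promoter elsewhere in the family was found for 54 members, and 44 of them had no region. Since 73 of the 83 lie in the run from Vmn1r91 to Vmn1r183, position and identity largely coincide. Split at 90% identity, 49 of 75 members of that run at or above it had no region, against 1 of 8 below it. In the other runs none of the 25 members at or above 90% and none of the 98 below it lacked a region. The sources used here do not say how reads that match several copies were handled, and its part in the result was not tested. The promoters of Vmn1r242 (chr7:20233779-20234078, minus strand) and Vmn1r111 (chr7:20703167-20703466, minus strand) show how alike these genes are. Neither gene has a listed region, and their promoters differ at 1 base, which is in capitals.
Vmn1r242: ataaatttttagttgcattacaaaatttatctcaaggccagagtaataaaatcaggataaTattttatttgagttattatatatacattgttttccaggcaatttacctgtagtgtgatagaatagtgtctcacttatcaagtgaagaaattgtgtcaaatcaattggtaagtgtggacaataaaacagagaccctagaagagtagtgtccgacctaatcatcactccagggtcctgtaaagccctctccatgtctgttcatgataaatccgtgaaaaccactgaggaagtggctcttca
Vmn1r111: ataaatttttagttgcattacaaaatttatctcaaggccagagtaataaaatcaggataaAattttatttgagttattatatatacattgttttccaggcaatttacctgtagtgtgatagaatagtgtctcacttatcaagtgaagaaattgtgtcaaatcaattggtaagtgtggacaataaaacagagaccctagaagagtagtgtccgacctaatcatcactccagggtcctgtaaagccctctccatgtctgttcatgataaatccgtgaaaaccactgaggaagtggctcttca
Near identity holds also for some members with regions, so that the values of Vmn1r125 (96.4% identical to Vmn1r112) and Vmn1r157 (100% identical to Vmn1r112) are uncertain as to the gene.

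**Figure D5:**
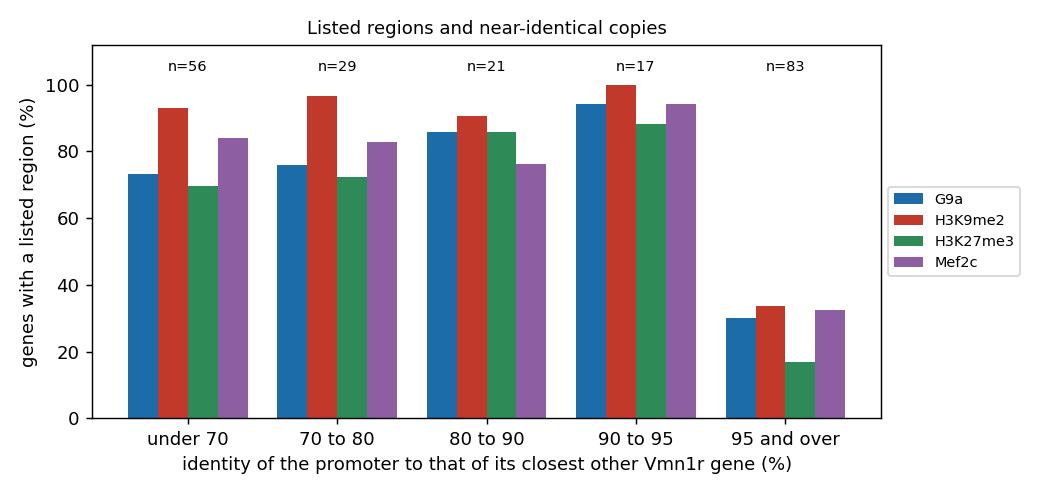
Bars give the percent of members with at least 1 listed region of each target, by the identity of their 300-base promoter to that of the closest other member. The share is between 69.6% and 100% in the 4 classes below 95% and between 16.9% and 33.7% at 95% and over.

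Few members kept a single direction across targets. Vmn1r10, Vmn1r125, Vmn1r157 and Vmn1r191 had only regions lower in KO for all 4 targets, 1.73% of the family against 0.232% of all genes. Vmn1r16 was the only member with regions higher in KO alone for all 4 targets, 0.433% of the family against 0.0968% of all genes. The receptor genes are short and mostly hold few regions each, and other short genes were not counted in this way. These shares are therefore not comparable with those of all genes. At Vmn1r191 on chromosome 13, which has no near-identical copy, the stronger of 2 G9a regions (chr13:22180451-22181100) had 22 and 16 in KO and 135 and 219 in Cre in the authors' deposited list, giving a log2 ratio of -3.15. Its single H3K9me2, H3K27me3 and Mef2c regions had log2 ratios of -1.12, -1.05 and -0.99. At Vmn1r10 on chromosome 6 the H3K27me3 region (chr6:57115701-57116400) had 10 and 51 in KO and 192 and 110 in Cre in the deposited list, a log2 ratio of -2.27. The genotypes did not overlap at either region. Vmn1r16, also on chromosome 6, had G9a values of 410 and 380 in KO and 117 and 220 in Cre in the deposited list over 1800 bp (chr6:57317851-57319650), a log2 ratio of 1.22. The Mef2c region at the same place (chr6:57317851-57319350) had 146 and 441 in KO and 186 and 153 in Cre in that list, so the genotypes overlapped there although the region is listed as higher.

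Where regions of 2 targets overlapped, no combination of directions held most G9a and H3K9me2 overlaps. Of the family's 284 G9a regions 57.4% overlapped an H3K9me2 region, which is 40.3% of the H3K9me2 regions. In 89 of 189 overlaps G9a was lower and H3K9me2 higher in KO (47.1%, against 35.6% of such overlaps over all listed regions). In 48 both were lower (25.4%, against 28.4%), in 41 both were higher (21.7%, against 25%), and in 11 G9a was higher and H3K9me2 lower (5.82%, against 11%). Mef2c and G9a regions overlapped in 46.5% of the G9a and 42.7% of the Mef2c regions, in 138 overlaps. Both were lower in 79 of them (57.2%, against 44.6% over all listed regions) and both higher in 18 (13%, against 15.9%). G9a alone was lower in 19 and Mef2c alone in 22. The shares are descriptions, with no test.

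The MEF2 consensus, an AT-rich motif that MEF2 proteins bind, was searched on both strands and stood in 14 of 206 family promoters (6.80%), against 3.19% of all promoters. Of these 14 genes 11 had a listed Mef2c region in the window, and of the 192 without the consensus 119 had. In the run from Vmn1r91 to Vmn1r183, 27 of 83 members with a promoter had a Mef2c region, against 103 of 123 other members. The genes with and without the consensus were not matched for that run, so their counts are not a like comparison. Mef2c regions lay over the promoter of 30 members, and 2 of these promoters, of Vmn1r70 (chr7:10633337-10633636, plus strand) and Vmn1r235 (chr17:21260177-21260476, plus strand), held the consensus, in capitals here.
Vmn1r70: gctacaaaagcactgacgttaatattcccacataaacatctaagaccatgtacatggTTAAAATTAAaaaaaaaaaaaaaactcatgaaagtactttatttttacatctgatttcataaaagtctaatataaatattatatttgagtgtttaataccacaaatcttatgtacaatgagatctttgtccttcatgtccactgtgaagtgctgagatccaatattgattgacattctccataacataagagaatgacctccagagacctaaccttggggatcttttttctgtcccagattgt
Vmn1r235: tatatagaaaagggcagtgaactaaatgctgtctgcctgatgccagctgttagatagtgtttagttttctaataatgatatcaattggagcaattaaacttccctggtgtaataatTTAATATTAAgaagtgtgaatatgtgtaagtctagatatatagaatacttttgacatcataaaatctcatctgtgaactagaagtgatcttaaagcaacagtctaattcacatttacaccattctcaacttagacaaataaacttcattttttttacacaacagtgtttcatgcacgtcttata
The match of Vmn1r70 begins at base -193 from the start, within a Mef2c region (chr7:10633151-10633600) that had 58 and 28 in KO and 135 and 41 in Cre in the authors' deposited list, giving a log2 ratio of -1.02. The match of Vmn1r235 begins at base -134 and reaches only the edge of a region (chr17:21260301-21261050) with 58 and 261 in KO and 95 and 31 in Cre in that list, a log2 ratio of 1.33. The genotypes overlapped at both regions, and the directions were opposite. TATAAA stood in 42.2% of family promoters, against 13.6% of all, and TAATTA, a homeodomain core that overlaps such AT-rich runs, in 7.28% against 5.29%. The family's windows are richer in A and T than all promoters, with a median of 36% G and C against 52.7%. Of the 206, 83 were at least 95% identical to that of another member, so the same match can be counted in several copies. These motif shares were not corrected for either. A match is a description of the letters in this window.

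Genes that work with the receptors were looked at beside them. The list held 19 genes, of which the histone methyltransferases Ehmt1, Ehmt2 and Nsd1 were left out after their values were seen. Of the 16 vomeronasal signalling and neuron genes that remain, 16 had G9a regions of both directions (69.6% of all protein-coding genes had), 13 had H3K9me2 regions of both directions (70.9% of all) and 15 had Mef2c regions of both directions (70.1% of all). For H3K27me3 12 had both (47.2% of all), 1 had lower regions only and 3 had none. These genes held up to 144 G9a regions each, so their share with both directions is not comparable with that of the short receptor genes. At Omp, the olfactory marker protein of mature sensory neurons, the 3 H3K27me3 regions were all lower in KO. The strongest had 346 and 462 in KO and 793 and 749 in Cre in the authors' deposited list, giving a log2 ratio of -0.93. At Trpc2, the channel of vomeronasal neurons, there was no listed H3K27me3 region, and the strongest H3K9me2 region had 144 and 199 in KO and 67 and 78 in Cre in the deposited list, a log2 ratio of 1.23. Gnai2, which couples to these receptors and is also used widely outside the nose, had no H3K9me2 or H3K27me3 region. Formyl peptide receptors, some of which serve as vomeronasal receptors, were 7 genes, of which 3 had lower G9a regions only (14.3% of all genes had), 2 higher only (7.88% of all) and 2 both (69.6% of all). Their windows were covered by H3K9me2 regions over 38.3% of the length, with 6 of the 7 genes holding regions of both directions (70.9% of all). The type 2 vomeronasal receptors, 123 genes, had 64.5% of their G9a regions, 28.4% of their H3K9me2 regions, 63.0% of their H3K27me3 regions and 64.2% of their Mef2c regions lower in KO. The olfactory receptors, 1104 genes, had 64.7%, 35.6%, 66.8% and 63.9% lower in the same order. Differences between these families were not tested.

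Markers of cell types were set beside the family by how much of their windows the lists covered. Windows of 10 cardiomyocyte marker genes such as Myh6 and Tnnt2 were covered by listed H3K27me3 regions over 1.38% and by H3K9me2 regions over 6.24% of their length. Endothelial, fibroblast and macrophage markers, 4 genes each, had between 18.8% and 41.7% for H3K27me3 and between 18% and 30.7% for H3K9me2. For G9a the coverage was 3.44% at the cardiomyocyte markers and between 22.6% and 23.8% at the others. For Mef2c it was 5.20% and between 13.2% and 20.3%, so low coverage of the pooled cardiomyocyte windows was common to all targets. Long genes weigh most in such pooled shares. Ryr2 alone held 28 of the 42 G9a regions of the cardiomyocyte markers, 61 of 74 H3K9me2 and 48 of 68 Mef2c regions. Myh6 held a long G9a region (chr14:54965151-54971500) and an H3K9me2 region at nearly the same place (chr14:54965051-54971450). The low pooled coverage therefore does not describe each marker. Since the lists hold only differing regions, this coverage does not tell which cells were present. Over the receptor windows the coverage was 14.2% for H3K27me3, 23.5% for H3K9me2, 13% for G9a and 13.8% for Mef2c, against 17.7%, 18.3%, 16.4% and 14.2% over all genes. The part of other cell types in the receptor values was not tested.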

How the data were processed

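The submitters' processing notes name BWA 0.7.10-r789, SAMtools 1.1 and the build mm10 (GRCm38). The authors deposited a list of differing regions per target, each region with a direction given by its strand sign. A single text cell held 4 signal values (2 for each genotype) and a -log10 p of at least 2. Whether the values are plain counts is not stated. No source used here gives the caller, scale, normalization or use of the inputs. Values carry no replicate number. Log2 ratios are log2(mean KO + 1) minus log2(mean Cre + 1). limma 3.58.1 in R 4.3.3 was fitted on log2(value + 1) over all listed regions of a target (trend, Benjamini-Hochberg at 0.05) and checked on simulated data. Gene spans and promoters came from RefSeq GRCm38.p6. Named genes are those of the 4 lower and 4 higher regions with the highest -log10 p per target, the strongest per chromosome, members with no region and members with a single direction in the most targets. The family, lists and rules were chosen with earlier results of these data known. Alternatives changed the window, score minimum, pseudocount, low-value filter, scaling and each value left out in turn.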

Additional observations from a re-analysis of the deposited data

How the results depend on the processing

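No paired analysis was possible because the values carry no replicate number. The share of regions lower in KO stayed on its side of 50%, and the KO to Cre ratio of signal shares kept its sign, under every alternative run. A minimum mean value of 20 removed no family region (the lowest was 38.5), and scaling turned no region round (the smallest log2 ratio was 0.37), so neither tests those shares. The other alternatives reuse regions that were listed for differing in these same values, so they test the direction only weakly. Counts were taken as unmoved within 1.5 times. Among regions with unadjusted limma p under 0.05, the majority ran the other way among the 9 G9a and 15 Mef2c regions without the second Cre value and the 26 Mef2c regions with scaled libraries. With only regions of -log10 p of at least 10, the share lower in KO was 78.2%, 19.5%, 79.4% and 81.4% for G9a, H3K9me2, H3K27me3 and Mef2c. The share over all listed regions at that score was not taken, so this rise cannot be read as a trait of the family. Counts of family regions with unadjusted limma p under 0.05 became 42 for G9a with a pseudocount of 10. Leaving out a value in turn gave 3 to 98, 20 to 115, 16 to 61 and 12 to 73 in the same order of targets, and 0 to 35 G9a regions past the adjusted limma threshold. On the gene span alone, members with lower regions only numbered 43 for G9a, 40 for H3K27me3 and 51 for Mef2c, and members with higher G9a regions only 13. With 5 kb either side, members with higher regions only numbered 14, 34, 15 and 6 for G9a, H3K9me2, H3K27me3 and Mef2c, and members with lower H3K9me2 regions only 4. With -log10 p of at least 10, lower only were 47, 10, 38 and 39 for G9a, H3K9me2, H3K27me3 and Mef2c, and higher only were 11, 8 and 8 for G9a, H3K27me3 and Mef2c. For these windows and this score no share over all genes or short genes was taken. The member counts show only how far the family's own counts move with the setting. Without members at least 95% identical to another, chosen after seeing the data, the share with a region was 78.9%, 94.3%, 75.6% and 83.7% in the same order of targets. Leaving out the run from Vmn1r91 to Vmn1r183 gave 69.8%, 36.1%, 68.7% and 68.1% of regions lower, and leaving out chromosome 17 gave 71.3%, 34.8%, 71.7% and 71.0%, both also chosen after seeing the data. The cause of these shifts was not tested. Depth is unknown, and 2 values per genotype limit every comparison.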
